A study of Mus musculus with 13 samples.

Results

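The distal end of mouse chromosome 16, chr16:90000000-98400000 on build mm9, held 632 of the 38356 H3K27me3 peaks listed for 4 mouse leukaemia cell lines. All peaks of the 4 lists that lie there were taken, whatever their height, which gave 237 of 19469 in 961C, 94 of 8412 in 748T, 88 of 5600 in 106A and 213 of 4875 in SCL-LMO1. Chromatin was fixed with formaldehyde, sonicated, immunoprecipitated with antibodies to H3K27me3 or H3K4me3 and sequenced, and the peaks were listed per library by the authors. In 961C, NP23 was also immunoprecipitated through its V5 tag.

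NP23 is NUP98-PHF23, a fusion of a nucleoporin with a protein whose PHD finger binds methylated H3K4. 961C is an NP23 acute myeloid leukaemia line labelled as myeloblast, from mouse 961, on C57BL/6. 748T and 106A are NP23 precursor T-cell lymphoblastic lines labelled as lymphoblast, from mice 748 and 106, also on C57BL/6. The SCL-LMO1 line, 7298/2, is a precursor T-cell lymphoblastic line with SCL and LMO1 in place of NP23, from a C57BL/6+C3H hybrid, and it is the control. All 4 lines grow without cytokines, and each NP23 line stands for 1 mouse, while the animal behind the control is not named. Oncogene and strain differ together in the control, so their parts cannot be told apart. The labelled cell types could not be checked against marker genes, because no expression was used and only Olig2 and Runx1 are placed on mm9 here.

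H3K27me3 is laid down by Polycomb repressive complex 2 and lies over genes that are kept silent, often over those of other cell lineages. H3K4me3 marks promoters that are active or poised. Runx1 encodes a transcription factor that blood stem cells and many leukaemias depend on, and it is read from alternative distal and proximal promoters. Olig2 encodes a basic helix-loop-helix factor of oligodendrocytes and motor neurons and can act as an oncogene when it is misplaced in T cells. The segment matches part of the human chromosome that is tripled in Down syndrome.

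Within 50 kb of Olig2 only H3K27me3 was listed, with no peak in 748T, while over Runx1 only H3K4me3 was listed. These are the genes placed in the segment here, so their promoters are shown. The sequences are 300 bases each, 250 before and 50 after the start, from RefSeq on GRCm38.p6, with CG dinucleotides in capitals. They are read 5′ to 3′ on the strand of the gene: chr16:91225300-91225599 on the plus strand for Olig2, chr16:92826025-92826324 on the minus strand for the distal Runx1 promoter, and chr16:92697280-92697579 on the minus strand for the proximal one. Peak positions are on mm9, so they were not laid onto these sequences.
Olig2 promoter: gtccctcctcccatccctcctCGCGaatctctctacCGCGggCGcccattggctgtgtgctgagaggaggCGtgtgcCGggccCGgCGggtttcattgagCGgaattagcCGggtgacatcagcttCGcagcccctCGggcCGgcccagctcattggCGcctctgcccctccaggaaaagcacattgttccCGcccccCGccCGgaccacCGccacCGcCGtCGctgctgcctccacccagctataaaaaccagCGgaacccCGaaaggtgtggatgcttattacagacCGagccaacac
Runx1 distal promoter: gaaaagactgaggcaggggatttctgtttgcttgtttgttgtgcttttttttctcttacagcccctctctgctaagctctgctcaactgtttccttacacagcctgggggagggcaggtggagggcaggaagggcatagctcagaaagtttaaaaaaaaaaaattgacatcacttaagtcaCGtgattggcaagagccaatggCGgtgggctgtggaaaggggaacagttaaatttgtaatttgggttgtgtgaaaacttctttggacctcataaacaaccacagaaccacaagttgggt
Runx1 proximal promoter: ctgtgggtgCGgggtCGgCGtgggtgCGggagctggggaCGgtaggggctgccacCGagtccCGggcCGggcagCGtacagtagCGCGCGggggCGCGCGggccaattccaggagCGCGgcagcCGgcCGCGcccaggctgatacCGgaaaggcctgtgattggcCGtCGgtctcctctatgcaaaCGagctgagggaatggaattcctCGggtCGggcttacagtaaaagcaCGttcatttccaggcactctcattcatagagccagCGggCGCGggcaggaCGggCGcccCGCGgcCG
The Olig2 promoter held 25 CG dinucleotides, and 18.4% of the 32851 promoters in the table held as many. The proximal Runx1 promoter held 35, which 6.95% of promoters reached, whereas the distal one held 2, which 85.9% reached. The median promoter held 7.

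Each line has 1 library per mark, so differences between lines were not tested. The intervals given are exact Clopper-Pearson 95% intervals that cover counting error only. They treat peaks as independent, although peaks cluster, so they are likely too narrow. Read totals are not known, so heights are read within a list. The SCL-LMO1 libraries stood apart in the segment. Each peak comes with the mean height of a second, unexplained track, which was read as background from its low values. For the H3K4me3 peaks of SCL-LMO1 that second track had a median of 2.73 reads in the segment and 1.08 reads in other autosomal sequence. All 213 SCL-LMO1 H3K27me3 peaks of the segment reached 15 reads or more, while 93.4% of those elsewhere on the autosomes stayed below 15. The part of either in the SCL-LMO1 results below was not tested.

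H3K27me3 peaks were denser in the segment than in other autosomal sequence in all 4 lines, and the excess was greatest in the control line. The segment was chosen with its high peak counts in 961C and SCL-LMO1 known. High density in these lines is therefore part of the choice and is given as description, not as a test. 961C held 28.5 peaks per Mb in the segment and 7.66 per Mb elsewhere, a ratio of 3.73 (3.26 to 4.23). 748T held 11.3 per Mb in the segment and 3.36 per Mb elsewhere, a ratio of 3.37 (2.72 to 4.13). The other NP23 pre-T line, 106A, held 10.6 per Mb in the segment and 2.17 per Mb elsewhere, a ratio of 4.89 (3.92 to 6.04). The intervals of the 3 NP23 lines overlap. SCL-LMO1 held 25.6 per Mb in the segment and 1.89 per Mb elsewhere, a ratio of 13.6 (11.8 to 15.6). Its interval lies above those of the 3 NP23 lines. With the taller 50% of each list the ratio was 8.14 in 106A and 28.4 in SCL-LMO1, and without the fullest 250 kb bin of the line it was 1.74 in 748T.

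As a share of the list, the segment took 1.22% in 961C (1.07 to 1.38), 1.12% in 748T (0.904 to 1.37), 1.57% in 106A (1.26 to 1.93) and 4.37% in SCL-LMO1 (3.81 to 4.98). Across the NP23 pre-T lines the mean share was 1.34% ± 0.321 (SD, n = 2), and the mean count was 91 ± 4.24 peaks. SCL-LMO1 held more peaks in the segment than either NP23 pre-T line from a shorter list, and nearly as many as 961C. The segment was chosen with high counts in SCL-LMO1 and 961C known, so this order follows in part from the choice. Against the rest of chromosome 16 the ratio was 7.51 in 961C, 5.66 in 748T, 7.69 in 106A and 28.2 in SCL-LMO1. The rest of the chromosome held 342, 180 and 124 peaks in 961C, 748T and 106A, and 82 in SCL-LMO1.

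Other autosomal stretches, 296 in all, give the range of these densities. They have the length of the segment, or less at chromosome ends and next to the segment. Because the segment was chosen with its counts in 961C and SCL-LMO1 known, a high rank in these lines was built in and tests nothing. In 961C 11 of them were as dense in H3K27me3 peaks as the segment, in 748T 14 were and in 106A 6 were. In SCL-LMO1 0 of the 296 were, and the densest held 12.2 peaks per Mb. The densest stretches of the NP23 lines, at 53.9 per Mb in 961C, 28.3 in 748T and 16.5 in 106A, lay outside the segment. H3K4me3 peaks were less unusual there: 64, 64 and 56 other stretches were as dense in 961C, 748T and 106A, and 38 in SCL-LMO1.

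**Figure D1:**
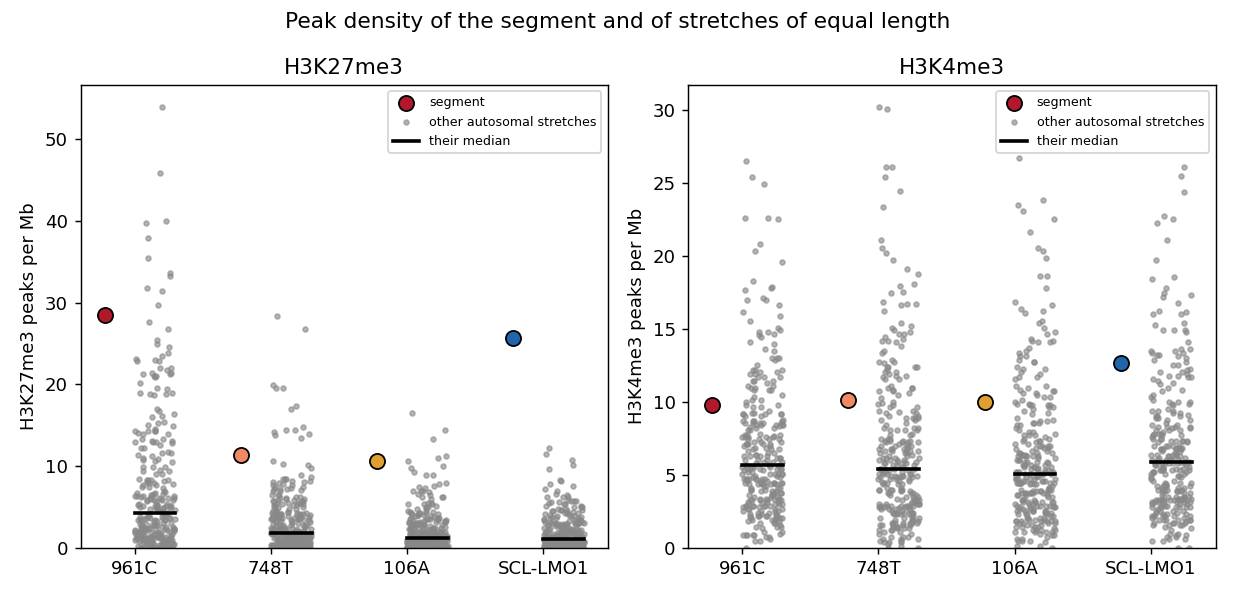
Peaks per Mb of the segment (large points) and of 296 other autosomal stretches (small points, spread sideways for legibility, with a bar at their median), by line, for H3K27me3 on the left and H3K4me3 on the right. The stretches have the length of the segment, or less at chromosome ends and next to the segment. For H3K27me3 the SCL-LMO1 segment, at 25.6 per Mb, lies above all other stretches of that line, while in each NP23 line some stretches are denser than the segment.

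H3K4me3 peaks numbered 81 in 961C, 84 in 748T, 83 in 106A and 105 in SCL-LMO1. Their density was 1.41 times that of other autosomal sequence in 961C (1.12 to 1.75), 1.47 times in 748T (1.17 to 1.82), 1.57 times in 106A (1.25 to 1.94) and 1.84 times in SCL-LMO1 (1.50 to 2.23). These ratios are closer together than those of H3K27me3, and the 4 intervals overlap.

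The H3K27me3 peaks were narrow, as in the lists at large, and covered little of the segment. Their median width was 350 bp in 961C, 222.5 bp in 748T, 233 bp in 106A and 342 bp in SCL-LMO1, while other autosomal peaks had medians of 292 bp in 961C, 204 bp in 748T, 219 bp in 106A and 208 bp in SCL-LMO1. Together they covered 1.49% of the segment in 961C, 0.341% in 748T, 0.308% in 106A and 1.19% in SCL-LMO1. Covered length outside the segment came to 0.351% of autosomal sequence in 961C, 0.0894% in 748T, 0.0604% in 106A and 0.0448% in SCL-LMO1. Peaks of 1 kb or more were 30 of 237 in 961C (12.7%, where the whole list has 9.43%), 3 of 94 in 748T (3.19%, whole list 1.76%), 4 of 88 in 106A (4.55%, whole list 2.09%) and 17 of 213 in SCL-LMO1 (7.98%, whole list 0.944%). Thus 17 of the 46 such SCL-LMO1 peaks in the genome lay in the segment.

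In height, too, SCL-LMO1 differed most from the rest of its own list. The median maximum height was 14 reads in 961C against 12 elsewhere on the autosomes, 14 against 12 in 748T, 12 against 10 in 106A and 19 against 12 in SCL-LMO1. The segment's lowest SCL-LMO1 maximum was 15 reads, whereas peaks elsewhere in the list began at 5. With that 15 taken as a limit, all 213 peaks of the segment pass by construction. Of the SCL-LMO1 peaks that reached it, 213 of 521 lay in the segment, or 40.9%. The same count was 89 of 5305 in 961C, 41 of 2280 in 748T and 14 of 358 in 106A, or 1.68%, 1.80% and 3.91%. Depth is unknown and the limit came from SCL-LMO1, so these shares are not compared between lines. In 961C, 748T and 106A the segment's maxima began at 9, 8 and 9 reads, with 2.34%, 1.19% and 8.55% of other autosomal peaks below them.

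The peaks were spread unevenly over the 34 bins of 250 kb. A bin held at least 1 H3K27me3 peak in 24 of 34 cases in 961C (70.6%, against 30.5% of other autosomal bins), 19 in 748T (55.9%, against 24.8%), 21 in 106A (61.8%, against 19.5%) and 23 in SCL-LMO1 (67.6%, against 20.6%). All 4 lines had a peak in 11 bins, 3 lines in 8, 2 lines in 7 and a single line in 5, and 3 bins were empty in every line. H3K4me3 peaks lay in 26 bins in 961C, 26 in 748T, 25 in 106A and 28 in SCL-LMO1. Bins with both marks numbered 20 in 961C, 16 in 748T, 13 in 106A and 17 in SCL-LMO1. Bins with H3K27me3 and no H3K4me3 numbered 4 in 961C, 3 in 748T, 8 in 106A and 6 in SCL-LMO1. Since most bins held H3K4me3, nothing is read from how often the marks shared a bin.

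**Figure D2:**
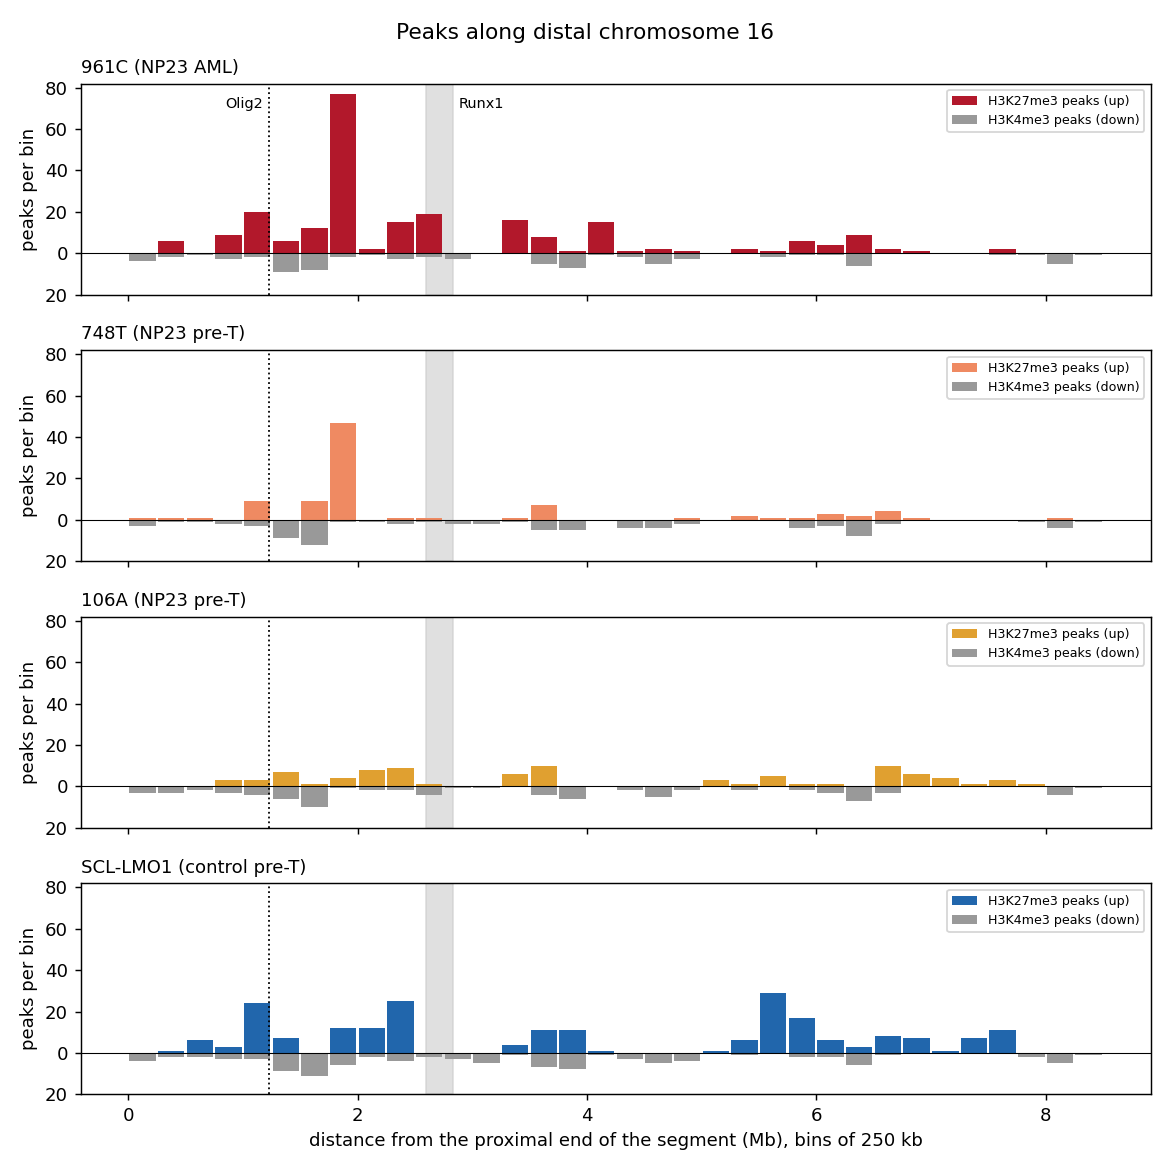
Number of H3K27me3 peaks (coloured, upward) and H3K4me3 peaks (grey, downward) per 250 kb bin in each line, against the distance from the proximal end of the segment in Mb; the dotted line marks Olig2 and the grey band Runx1. 961C and 748T share 1 tall bin, with 77 and 47 H3K27me3 peaks, while the SCL-LMO1 peaks spread over both sides of Runx1, with up to 29 in a bin.

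961C and 748T had the same fullest bin, at 91.75 to 92.00 Mb between Olig2 and Runx1. It held 77 peaks that covered 47.4 kb in 961C and 47 peaks that covered 17.5 kb in 748T, against 4 peaks in 106A and 12 in SCL-LMO1. These were 32.5% of the 961C peaks and 50% of the 748T peaks of the segment. H3K4me3 was sparse in that bin, with 2 peaks in 961C, 1 in 748T, 1 in 106A and 6 in SCL-LMO1. The next fullest in 961C were 91.00 to 91.25 Mb, which holds Olig2, with 20 peaks, and 92.50 to 92.75 Mb, with 19, all of them proximal of Runx1. In 748T they were 91.00 to 91.25 Mb and 91.50 to 91.75 Mb, with 9 peaks each.

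106A had no such concentration. Its fullest bins, at 93.50 to 93.75 Mb and 96.50 to 96.75 Mb, held 10 peaks each, and 92.25 to 92.50 Mb held 9. In SCL-LMO1 the fullest was 95.50 to 95.75 Mb, with 29 peaks over 15.3 kb and 0 H3K4me3 peaks, where 961C and 748T had 1 H3K27me3 peak each and 106A had 5. It was followed by 92.25 to 92.50 Mb with 25 peaks and the Olig2 bin with 24. The 3 fullest bins together held 48.9% of the peaks in 961C, 69.1% in 748T, 33.0% in 106A and 36.6% in SCL-LMO1.

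The lines differed in how much of the mark lay between Olig2 and Runx1. This stretch is 1.37 Mb long, and it held 135 H3K27me3 peaks in 961C, 58 in 748T, 30 in 106A and 57 in SCL-LMO1. That was 57.0% of the segment's peaks in 961C, 61.7% in 748T, 34.1% in 106A and 26.8% in SCL-LMO1. The bin at 91.75 to 92.00 Mb alone held 77 of the 135 peaks in 961C and 47 of the 58 in 748T. It held 4 of the 30 in 106A and 12 of the 57 in SCL-LMO1. The higher shares of 961C and 748T thus came largely from that bin and not from the stretch as a whole. RefSeq on GRCm38.p6 lists 23 protein-coding genes between them, among them Olig1, the interferon and interleukin-10 receptor genes Ifnar1, Ifnar2, Ifngr2 and Il10rb, the splicing cofactor Son, the potassium channel subunit Kcne1 and the calcineurin regulator Rcan1. Their positions on mm9 were not used here, so no peak is assigned to one of them. Distal of Runx1, the order was different, with 71 peaks in 961C, 24 in 748T and 52 in 106A, and 123 in SCL-LMO1. That was 29.96%, 25.5% and 59.1% of the segment's peaks in 961C, 748T and 106A, and 57.7% in SCL-LMO1.

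Around Olig2, H3K27me3 differed between the lines and H3K4me3 was not listed in any. Within 50 kb of the gene, 961C had 17 H3K27me3 peaks over 10.8 kb, 748T had 0, 106A had 3 over 0.613 kb and SCL-LMO1 had 7 over 5.41 kb. The 961C peaks lay mostly in a cluster that spanned the position given for Olig2, from chr16:91219489 to chr16:91234170. Its widest peak was at chr16:91222062-91224945 (2884 bp, maximum 18 reads) and its tallest at chr16:91225509-91227237 (1729 bp, maximum 29 reads). In SCL-LMO1 the widest, at chr16:91256609-91258617 (2009 bp, maximum 22 reads), lay some way distal, and near the gene itself there were peaks of 287 bp and 259 bp. 106A had a 262 bp peak inside that wide SCL-LMO1 peak. 748T had 9 peaks elsewhere in the Olig2 bin.

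Runx1 had H3K4me3 listed in every line and no H3K27me3. Over its body, 92.60 to 92.83 Mb, 0 H3K27me3 peaks were listed in each of the 4 lines, and 961C had no NP23 peak there. The wide H3K4me3 peaks lay at the same pair of places in every line. At the place nearer the centromere, 961C had a peak at chr16:92693324-92699406 (6083 bp, maximum 91 reads), 748T had one of 4993 bp (119 reads), 106A one of 5169 bp (156 reads) and SCL-LMO1 one of 5827 bp (147 reads). At the other, 961C had a peak at chr16:92824206-92826345 (2140 bp, 87 reads), 748T one of 3771 bp (125 reads), 106A one of 4879 bp (200 reads) and SCL-LMO1 one of 3836 bp (178 reads). The remaining H3K4me3 peaks over Runx1 were narrower, between 101 and 721 bp, and were listed in every line. Those in 748T and 106A lay close beside a wide peak, while some of those in 961C and SCL-LMO1 lay between the pair and further from it.

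**Figure D3:**
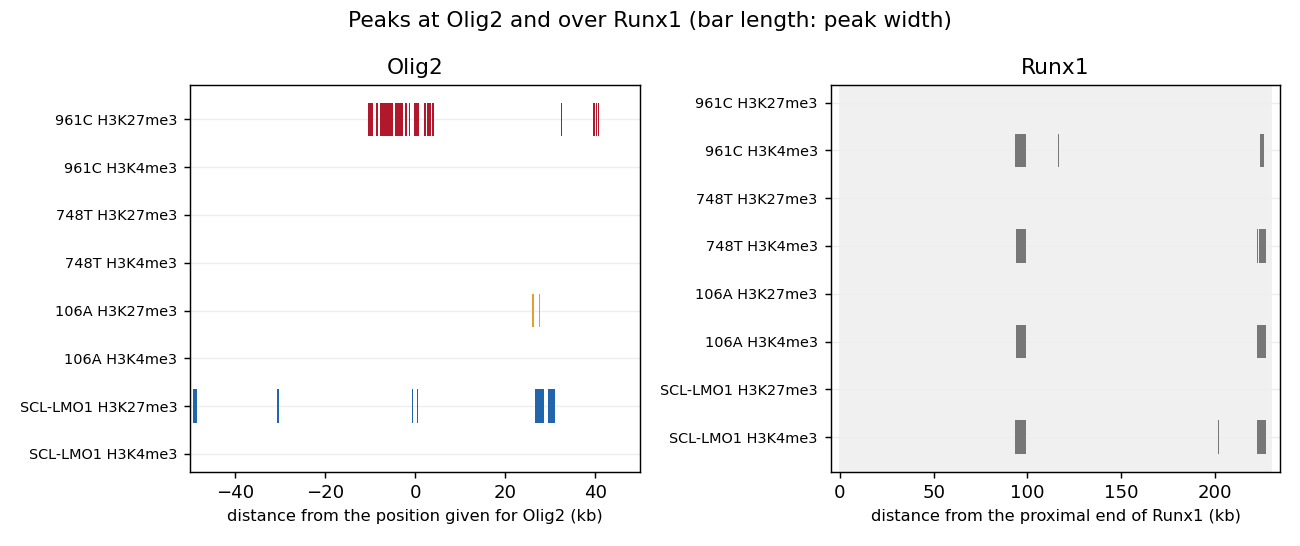
Peaks of H3K27me3 (coloured) and H3K4me3 (grey) by line within 50 kb of Olig2 on the left and over the body of Runx1 on the right, drawn to scale against distance in kb, with bar length equal to peak width. At Olig2 only H3K27me3 is listed, with 17 peaks in 961C, 0 in 748T, 3 in 106A and 7 in SCL-LMO1. Over Runx1 only H3K4me3 is listed, with its wide peaks at the same pair of places in each line. Narrower ones lie close beside a wide peak in 748T and 106A, and some lie further away in 961C and SCL-LMO1.

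The widest and the tallest peak of a line were the same peak in 748T and different peaks in the other lines. In 961C the widest was chr16:91792026-91795117 (3092 bp, maximum 21 reads), in the fullest bin, and the tallest was chr16:93682227-93685135 (2909 bp, 30 reads), which no other line shared. In 748T that single peak was chr16:91827533-91829232 (1700 bp, 45 reads), and 961C peaks covered 97.5% of it. In 106A the widest, chr16:96694123-96695878 (1756 bp, 13 reads), met no peak of another line. In SCL-LMO1 the widest was chr16:92363326-92365783 (2458 bp, 18 reads), which no other line shared, and the tallest was chr16:91054399-91056468 (2070 bp, 29 reads), of which a 748T peak covered 6.47%.

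Most of these peaks met no peak of another line in 961C, 106A and SCL-LMO1, whereas most of those in 748T did. An overlap of at least 1 bp with any other line was found for 66 of 237 peaks in 961C (27.8%, 22.2 to 34.0), where the whole list has 11.8%. It was found for 56 of 94 in 748T (59.6%, 49.0 to 69.6), where the whole list has 22.2%. In 106A it was 26 of 88 (29.5%, 20.3 to 40.2), near the 22.9% of the whole list, and in SCL-LMO1 39 of 213 (18.3%, 13.4 to 24.2), near the 13.7% of the whole list. The peaks were also denser in the segment, and the part of that in these shares was not tested. When 50% of a peak had to be covered, the share was 16.5% in 961C, 51.1% in 748T, 19.3% in 106A and 7.51% in SCL-LMO1.

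The highest share was that of 748T peaks that met 961C, the line with the longest list. Set against the whole list, the shares of 106A, 961C and 748T peaks that met SCL-LMO1 rose by more. The reverse shares, of SCL-LMO1 peaks that met those lines, rose by less. Of the 748T peaks, 45 of 94 met a 961C peak (47.9%, 37.5 to 58.4), against 18.2% of its whole list. Of the 961C peaks, 42 of 237 met a 748T peak (17.7%, 13.1 to 23.2), against 7.2%. In both directions most of these overlaps lay in the shared fullest bin, at 91.75 to 92.00 Mb, which held 47 of the 94 peaks of 748T. The excess over the whole lists thus came largely from that bin and not from the segment as a whole. 106A and SCL-LMO1 met in 18 of 88 peaks of 106A (20.5%, 12.6 to 30.4), against 4.55% of its whole list, and 19 of 213 of SCL-LMO1 (8.92%, 5.46 to 13.6), against 5.42%. 961C likewise shared more with the control than its list at large did. It met SCL-LMO1 in 24 of 237 peaks (10.1%, 6.60 to 14.7), against 2.14%, and SCL-LMO1 met 961C in 23 of 213 (10.8%, 6.97 to 15.8), against 8.94%. The NP23 pre-T lines met each other about as often as over their whole lists: 7 of 94 peaks of 748T met 106A (7.45%, 3.05 to 14.7), against 5.6%, and 7 of 88 of 106A met 748T (7.95%, 3.26 to 15.7), against 8.2%. 106A met 961C in 6 of 88 peaks (6.82%, 2.54 to 14.3), below the 15.8% of its whole list, and 961C met 106A in 6 of 237 (2.53%, 0.935 to 5.43), against 4.32%. For 748T and SCL-LMO1, the counts were 7 of 94 peaks of 748T (7.45%, against 1.8% of the list) and 7 of 213 of SCL-LMO1 (3.29%, against 3.02%).

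**Figure D4:**
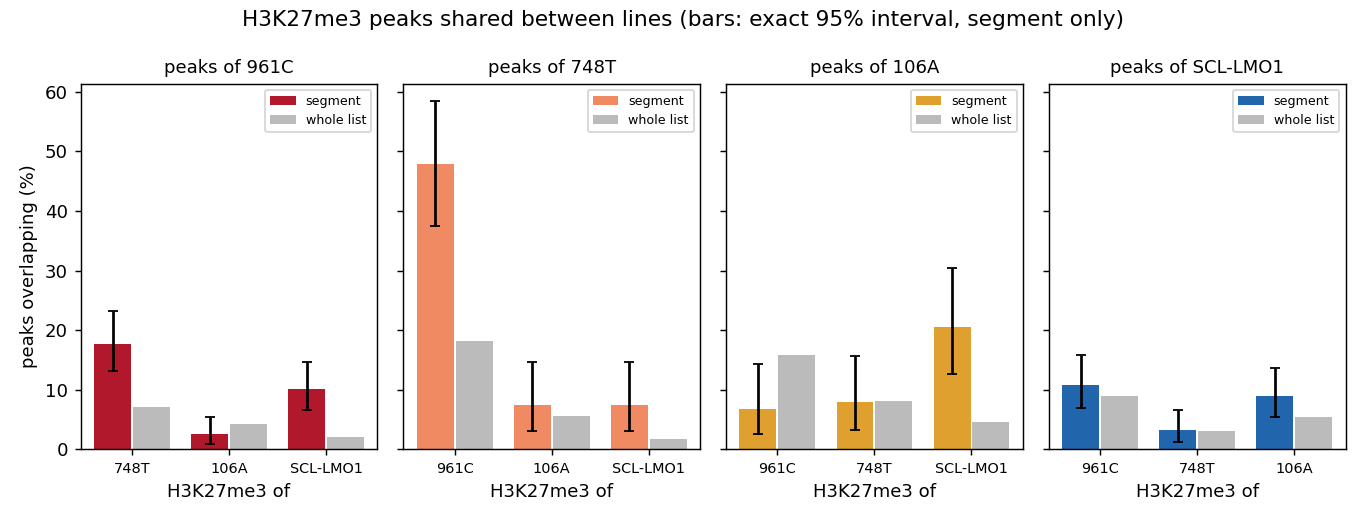
Percentage of the H3K27me3 peaks of each line (panels) that overlap an H3K27me3 peak of each other line (horizontal axis), in the segment (coloured, with exact 95% intervals) and over the whole list (grey). The highest bar is that of 748T peaks that meet 961C, at 47.9% in the segment and 18.2% over the whole list. Most of these 748T peaks lie in the bin at 91.75 to 92.00 Mb.

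Merged over the 4 lines, the peaks formed 526 regions, of which 445 (84.6%) were marked in 1 line, 72 in 2 lines, 9 in 3 lines and 0 in 4 lines. Over the whole genome 92.5% of 34848 merged regions were marked in 1 line, and 46 in all 4. The regions of a single line split into 171 in 961C, 38 in 748T, 62 in 106A and 174 in SCL-LMO1. A further 38 were marked in 961C and 748T together. The 9 regions of 3 lines all included SCL-LMO1, and 5 of them joined it with 961C and 106A. The widest of the 9, chr16:91821623-91823761, lay in the fullest bin of 961C and 748T and was covered by 1964 bp of 961C peaks, 1583 bp of 748T and 285 bp of SCL-LMO1. At chr16:92269633-92271766, 961C covered 369 bp, 106A 1197 bp and SCL-LMO1 1297 bp.

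H3K27me3 and H3K4me3 of the same line rarely overlapped, in the segment as over the whole lists. A same-line overlap was found for 0 of 237 H3K27me3 peaks in 961C (up to 1.54%, whole list 2.06%), 1 of 94 in 748T (1.06%, whole list 1.74%), 1 of 88 in 106A (1.14%, whole list 0.464%) and 0 of 213 in SCL-LMO1 (up to 1.72%, whole list 0%). The overlap in 748T is 270 bp long at chr16:96579292-96579631, and that in 106A is 69 bp long at chr16:91547753-91548003. Within 5 kb of an H3K4me3 peak of the same line lay 12 of 237 peaks in 961C (5.06%, against 10.7% of the autosomal list), 11 of 94 in 748T (11.7%, against 19.8%), 4 of 88 in 106A (4.55%, against 5.07%) and 5 of 213 in SCL-LMO1 (2.35%, against 1.68%). The median gap to H3K4me3 was 56.2 kb in the segment and 37.3 kb over other autosomal peaks in 961C, 62.3 and 22.5 kb in 748T, 70.3 and 65.0 kb in 106A, and 66.1 and 83.3 kb in SCL-LMO1. The gap was thus wider in the segment in the 3 NP23 lines and narrower in SCL-LMO1.

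A few places carried H3K27me3 in one line and H3K4me3 in another, 15 of the 632 peaks in all: 8 in 961C, 1 in 748T, 3 in 106A and 3 in SCL-LMO1. For 961C, 1 of 237 peaks met H3K4me3 of 748T (0.422%, whole list 5.31%), 5 met that of 106A (2.11%, whole list 4.16%) and 7 that of SCL-LMO1 (2.95%, whole list 3.13%). For 748T, 0 of 94 peaks met H3K4me3 of 961C (whole list 1.33%), 1 met that of 106A (1.06%, whole list 1.66%) and 0 that of SCL-LMO1 (whole list 0.892%). These counts lie near or below the background of the lists. For 106A, 2 of 88 peaks met H3K4me3 of 961C (2.27%, whole list 1.32%), 1 met that of 748T (1.14%, whole list 1.3%) and 2 that of SCL-LMO1 (2.27%, whole list 0.554%). For SCL-LMO1, 3 of 213 peaks met H3K4me3 of 961C (1.41%, 0.291 to 4.06, whole list 0.451%), 0 met that of 748T (whole list 0.123%) and 0 that of 106A (whole list 0.0821%). With at most 3 peaks each, these shares were not distinguishable from those of the whole lists. The clearest case was in the fullest SCL-LMO1 bin. There a 961C H3K4me3 peak at chr16:95677416-95681255 (3840 bp, maximum 66 reads) held SCL-LMO1 H3K27me3 peaks at chr16:95678300-95680144 (1845 bp, 21 reads) and chr16:95680328-95680714 (387 bp, 17 reads), and a 106A H3K27me3 peak of 222 bp. In the other direction, 3 H3K27me3 peaks of 961C between chr16:90385616 and chr16:90388016 met H3K4me3 peaks of 5082 bp in 106A and 2101 bp in SCL-LMO1.

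NP23 itself was rare in the segment. Of the 1629 NP23 peaks of 961C, 2 lay there (0.123%, 0.0149 to 0.443), a density 0.379 times that of other autosomal sequence (0.0459 to 1.37). They were 111 bp (maximum 11 reads) at chr16:90892886-90892996 and 270 bp (14 reads) at chr16:93562491-93562760. Both met an H3K4me3 peak of 961C, over 111 bp and 91 bp, and neither met H3K27me3 of any line. With 2 peaks, this interval includes equal density.

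The second track moved with position in SCL-LMO1 and to a lesser degree in 106A. Of the H3K4me3 peaks, 40 of 81 in 961C had a second-track mean above the autosomal median of that list (49.4%, against 50% over the autosomes), and 46 of 84 in 748T (54.8%, against 50%). It was 70 of 83 in 106A (84.3%, 74.7 to 91.4, against 50.2%) and 101 of 105 in SCL-LMO1 (96.2%, 90.5 to 99.0, against 50.3%). The segment's median for H3K4me3 was 0.254 reads in 961C against 0.266 elsewhere, 0.217 against 0.202 in 748T, 2.05 against 1.47 in 106A and 2.73 against 1.08 in SCL-LMO1. No autosome of 19 had a median as high as the segment's in 106A (highest 1.92) or in SCL-LMO1 (highest 1.18). Shorter stretches did in 106A: along chromosome 16 its H3K4me3 median was 2.08 reads at 50 to 60 Mb and 2.10 at 80 to 90 Mb, so the raised track of 106A was not particular to the segment.

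In SCL-LMO1 the H3K4me3 second track was already raised before the segment began, with a median of 2.70 reads at 80 to 90 Mb and 1.10 at 70 to 80 Mb. H3K27me3 peaks gave the same picture in that line, with a second-track median of 1.76 reads in the segment and 0.386 elsewhere, and 0 of 213 at exactly 0, against 21.4% elsewhere. For 961C the H3K27me3 medians were 0.236 in the segment and 0.134 elsewhere, for 748T 0 and 0, and for 106A 0.997 and 0.498. Over H3K27me3 peaks, the median second track of the segment was thus 4.55 times that elsewhere in SCL-LMO1, 2.00 times in 106A and 1.76 times in 961C. Averaged over the bases of these peaks it was 3.78, 1.52 and 1.20 times that elsewhere in the same lines. Over H3K4me3 peaks the medians were 2.52, 1.39 and 0.953 times those elsewhere, so in 961C only the H3K27me3 peaks had a higher median. The mean height of the peaks over their bases was 1.57 times that elsewhere for both H3K27me3 and H3K4me3 of SCL-LMO1, against 1.02 and 0.945 in 961C, 1.07 and 0.980 in 748T, and 1.13 and 1.21 in 106A. The part of the second track in the peak numbers of the segment was not tested.

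**Figure D5:**
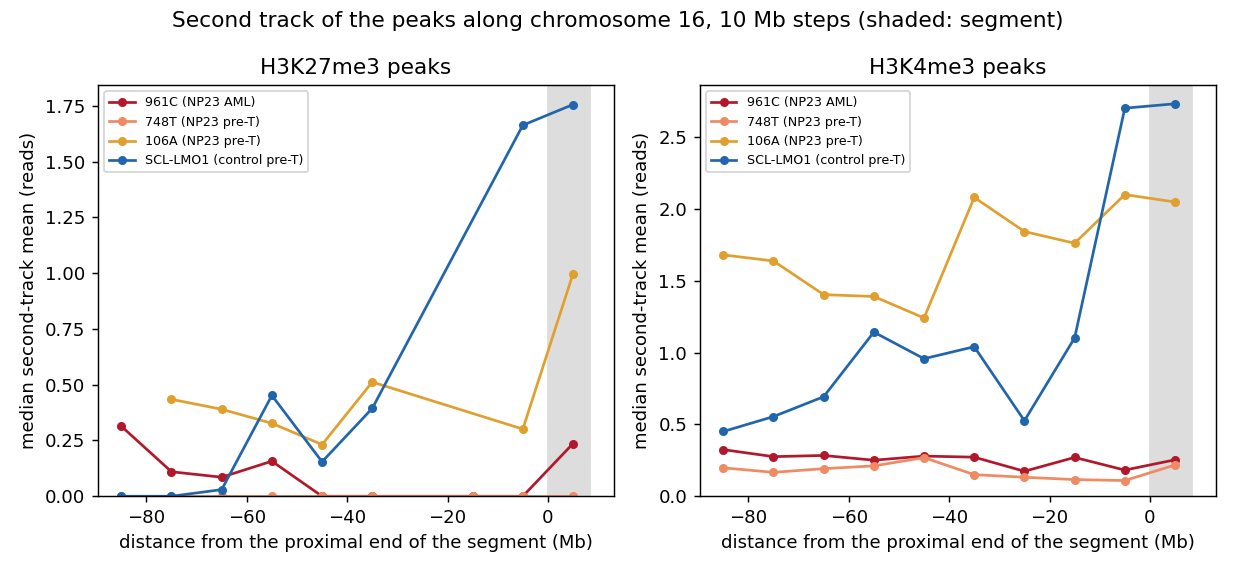
Median second-track mean of the peaks, in reads, in steps of 10 Mb along chromosome 16 by line, for H3K27me3 on the left and H3K4me3 on the right, against the distance from the proximal end of the segment in Mb (shaded: the segment). For H3K4me3 the SCL-LMO1 line stands at 2.70 and 2.73 reads in the last steps and between 0.451 and 1.14 before them, while 961C stays at or below 0.324 throughout; steps with fewer than 3 peaks are not drawn, and a line joins the points on either side of them.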

How the data were processed

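ChIP-seq of 4 mouse cell lines was used: 9 of 13 samples have a peak list, and the 4 input samples were not used here. The submitters' processing notes name CASAVA 1.9, BWA 0.5.9-r26 and build mm9. Which peak caller made the lists is not stated in the sources at hand. The lists deposited by the authors give, per peak of 1 library, start, end and a text field with the mean and maximum pileup height and those of a second track whose letter is unexplained. Heights carry no scaling to depth, and depth per library is unknown. The second track was missing in 5 of 109165 rows and in 0 of the 632 rows studied.

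Rows of chromosome 16 in the segment were selected by position. Densities use the furthest peak end of each chromosome as its length. Overlap means at least 1 bp. Samples were grouped by the labels' line and antibody; 748T and 106A form the NP23 pre-T group (n = 2), and no test was run. Alternatives were the taller 50% of each list, lists of equal number, joined peaks, shifted windows, other bins, stricter overlap and leaving out a line or the fullest bin. Named regions were the 3 widest and 3 tallest peaks and the 3 fullest bins per line, peaks around Olig2 and Runx1, regions of 3 or more lines and NP23 peaks. The segment and these lists were chosen with earlier results of these data known. Gene order and promoters came from RefSeq, GRCm38.p6. Density and overlap steps were tested on simulated data. Python 3.11.15, numpy 2.4.6, pandas 2.3.3, scipy 1.17.1 and matplotlib 3.10.9 were used.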

Additional observations from a re-analysis of the deposited data

Results flagged for a closer look

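The height of the H3K4me3 peaks moved differently in the lines. The median maximum height in the segment minus that in other autosomal sequence was 4 reads in 961C (43 and 39), 8 in 748T (85 and 77), 40 in 106A (139 and 99) and -6 in SCL-LMO1 (72 and 78). The NP23 lines and the control thus moved in opposite directions, and the difference was not tested. Among H3K4me3 peaks of 1 kb or more the direction was the other way in 3 of the 4 lines: medians were 59 in the segment and 64 elsewhere in 961C, 111 and 115 in 748T, 151 and 129 in 106A, and 168 and 115 in SCL-LMO1.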

How the results depend on the processing

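Of 116 recomputed values, 73 stayed within the limit set around the value reported and 43 moved beyond it. The limit was the interval or spread of that value, or, for bin counts, which have neither, a fixed ratio to the reported count. The H3K27me3 density ratio was highest in SCL-LMO1 under all 8 settings tried for it, at least 2.18 times that of the next line, and no line fell below 1.74. All settings rest on a segment chosen with high counts in SCL-LMO1 and 961C known. Values are given in the order 961C, 748T, 106A and SCL-LMO1. With the rest of chromosome 16 as comparison the ratios were 7.51, 5.66, 7.69 and 28.2. With the taller 50% of each list they were 4.73, 4.66, 8.14 and 28.4, the shares of the list 1.56%, 1.55%, 2.64% and 8.74%, and the pre-T mean share 2.09%. With lists of equal number, 961C had a ratio of 5.09 and a share of 1.68%, and 748T 4.32 and 1.44%. With peaks within 1 kb joined, 961C had 3.17 and 1.03%, and SCL-LMO1 10.8 and 3.50%. Without the fullest bin, 961C had 2.59 and 0.825%, 748T 1.74 and 0.562%, and SCL-LMO1 a share of 3.80%, while the pre-T mean share was 0.979%. Leaving out either pre-T line gave a share between 1.12% and 1.57%. With 500 kb bins, 15, 13 and 14 bins held H3K27me3 in 961C, 106A and SCL-LMO1. The segment has fewer bins of that size, so these lower counts do not show a smaller covered share. 748T had 12 of the 250 kb bins with the taller 50% and with lists of equal number. Overlap with another line over at least 50% of the peak was 16.5% in 961C, 19.3% in 106A and 7.51% in SCL-LMO1, and SCL-LMO1 had 12.7% with lists of equal number and 13.1% with the taller 50%. H3K4me3 overlap was 0% in 106A under the 50% rule and 0% in 748T with lists of equal number and with the taller 50%. The share of peaks with a raised second track was 91.7% in 106A for H3K4me3 peaks of 500 bp or more, and, for H3K27me3 peaks in place of H3K4me3, 60.8% in 961C and 24.5% in 748T. The value for 748T has no bearing on the H3K4me3 result, since 77.3% of its other autosomal H3K27me3 peaks have a second track of exactly 0. The cause of these shifts was not tested. No paired analysis was possible because each line and mark has 1 library and no group was tested.

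The unknown depth, the unstated peak caller and 1 library per line limit what the peak numbers show, and a gap in a list is not a level of 0.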
